A study of Mus musculus with 57 samples.

Results

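The MEF2 genes Mef2a, Mef2c and Mef2d were followed through H3K4me3, H3K27ac and H3K27me3 in brain cortex and gastrocnemius, the large calf muscle, of PSAPP mice. Every RefSeq transcript start of these 3 genes was taken, starts of a gene within 1 kb of each other were joined, and this gave 6 starts among the 50074 of the whole annotation. All animals were PSAPP mice aged 13 months, which carry mutant human presenilin 1 and a chimeric mouse/human mutant APP transgene as a model of Alzheimer's disease, and no mouse without the transgenes enters a comparison. For each mark 9 cortex and 10 gastrocnemius libraries were analysed, 57 in all, from 10 animals of which 9 gave both tissues, and the tissues had been snap-frozen. The labels do not give the sex of an animal, so both sexes stand together in each group. Values are reads of the peaks that the authors called in each library, shared over a peak by overlap and scaled to 1000000 reads in the autosomal peaks of the library (RPM). A value of 0 therefore means that no peak was called, not that no read was there.

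MEF2 proteins are transcription factors with a MADS box that bind the sequence CTA(A/T)4TAG as dimers. In muscle they act with MyoD family factors on fibre genes, and in neurons calcium signals release them from class IIa histone deacetylases, so that they act on activity-dependent and synaptic genes. H3K4me3 marks the starts of genes, H3K27ac marks active starts and enhancers, and H3K27me3 is the mark of Polycomb repression.

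The 3 genes lie on different chromosomes of mm10. Mef2a spans chr7:67231163-67376456 on the minus strand, with a curated start at 67372858 and a predicted start at 67376456. Mef2c spans chr13:83504017-83667079 on the plus strand and has 3 groups of starts, the first beginning at 83504017, the second at 83523458 and the third at 83573607. The second and the third lie inside the transcripts that begin at the first. Mef2d is the shortest, chr3:88141941-88172091 on the plus strand, with 1 group of starts from 88141941 to 88143350.

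The sequence before the first and the second Mef2c start is shown because these starts differed between the tissues, and the bases around the curated Mef2a start are shown because they hold a match to the MEF2 site itself. Sequences are RefSeq GRCm38.p6, read 5′ to 3′ on the strand of the gene, and capitals mark matches to the MEF2 box (CTA and TAG with any 4 bases between them), to the E-box CANNTG or to TATAAA on either strand.
Mef2c first start, chr13:83503767-83504016, plus strand: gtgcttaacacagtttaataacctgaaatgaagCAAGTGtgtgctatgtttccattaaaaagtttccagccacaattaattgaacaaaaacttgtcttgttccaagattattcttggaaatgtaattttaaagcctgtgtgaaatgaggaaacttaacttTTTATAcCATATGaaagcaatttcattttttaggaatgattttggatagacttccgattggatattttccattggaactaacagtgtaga
Mef2c second start, chr13:83523208-83523457, plus strand: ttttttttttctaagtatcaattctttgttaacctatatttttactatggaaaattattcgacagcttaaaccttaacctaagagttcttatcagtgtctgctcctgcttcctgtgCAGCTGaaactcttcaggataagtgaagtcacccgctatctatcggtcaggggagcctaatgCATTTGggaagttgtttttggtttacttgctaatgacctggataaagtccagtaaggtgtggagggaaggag
Mef2a curated start, chr7:67372849-67372878, minus strand: ctggccgaggcctgactcCTAAAAATAGcc

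Both Mef2c stretches of 250 bases hold 2 E-boxes, and the first also holds TATAAA on the reverse strand. At the first start 31.2% of the bases were G or C with 1 CpG, against 39.2% with 3 CpG at the second, 61.6% with 21 CpG at the curated Mef2a start and a median of 49.2% over all starts. The MEF2 match at Mef2a begins 2 bases before the curated start. Over 50059 starts of the annotation, 3.53% held the MEF2 box between 250 bases before and 10 bases after the start, 70.1% held CANNTG and 14.7% held TATAAA. No match to the MEF2 box was present in these windows at the other 5 MEF2 starts.

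The tissue labels were checked on marker genes at the start with the most H3K4me3 reads. All 6 neuron markers had an H3K4me3 peak in every cortex library, and Snap25, Camk2a and Gad1 had none in any gastrocnemius library. Of 6 muscle fibre markers all had a peak in every gastrocnemius library, and Ckm, Tnnt3, Ttn and Myh4 had none in any cortex library. Mylpf had a peak in every cortex library too, with 43.5 RPM in the cortex and 25.6 RPM in the gastrocnemius. The remaining marker, Acta1, had a peak in some cortex libraries but not in every one. Markers of other cells were called as well. Astrocyte and oligodendrocyte markers (3 of 3 each) and 2 of 3 microglia markers were called in every cortex library, while satellite cell and Schwann cell markers (2 of 2 each) and endothelium markers (3 of 3) were called in every gastrocnemius library. Such calls do not single out a cell type, as 2 of 3 astrocyte, 1 of 3 oligodendrocyte and 2 of 6 neuron markers were called in every gastrocnemius library too, and 1 of 2 Schwann cell markers in every cortex library. Among all 50074 starts, 19699 had an H3K4me3 peak in every cortex library and 19283 in every gastrocnemius library. No cortex library had one at 27241 starts, and no gastrocnemius library at 26135. The 3 endothelium markers were also called in every cortex library, with H3K4me3 higher in the gastrocnemius for each (Tek, −1.85 log2). These are bulk tissues, so that a mark on fewer cells and less of a mark per cell cannot be told apart, and the part of any cell type in the values below was not tested.

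No H3K27me3 peak was called in the body of any of the 3 genes. No library of either tissue had an H3K27me3 peak within 1 kb of any of the 6 starts, as for 52.7% of all starts. Peak reads in the gene bodies were 0 in 9 of 9 cortex and 10 of 10 gastrocnemius libraries. The share of all gene bodies without such a peak was not computed. H3K27me3 within 200 kb lay in the flanks of each gene.

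The curated Mef2a start, the second Mef2c start and the Mef2d start carried H3K4me3 and H3K27ac peaks in all 19 libraries of each mark. Per kb of window, the H3K4me3 level in the cortex was 23.0 RPM per kb at Mef2a, 19.8 at Mef2d and 14.3 at the second Mef2c start. In the gastrocnemius it was 18.6 RPM per kb at Mef2d, 17.5 at Mef2a, 12.2 at the first Mef2c start and 10.5 at the second. The first and the second place in each tissue differed by less than the spread between libraries. H3K27ac per kb ran from 8.65 at Mef2a through 7.91 at Mef2d to 5.20 at the second Mef2c start in the cortex, and Mef2d was highest in the gastrocnemius with 9.87.

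**Figure D1:**
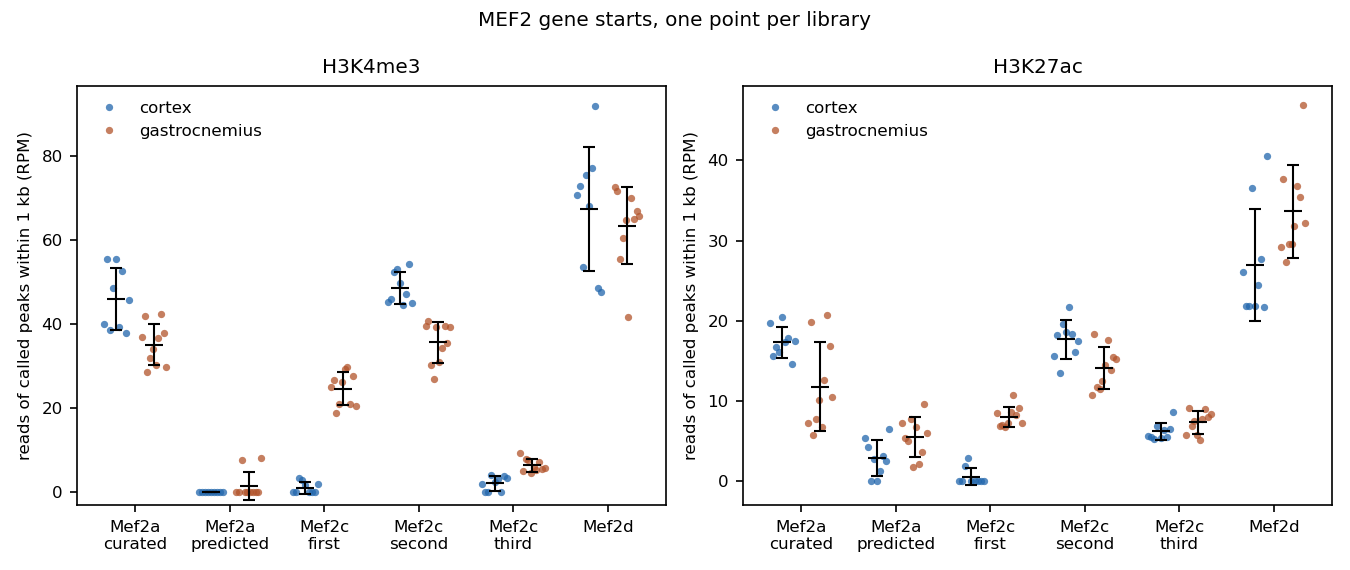
Reads of called peaks within 1 kb of each MEF2 start, in RPM (linear axis), for H3K4me3 (left) and H3K27ac (right). Each point is 1 library, blue for cortex (n = 9) and brown for gastrocnemius (n = 10), and the bars give the mean ± SD. At the first Mef2c start the gastrocnemius libraries lie between 18.97 and 29.9 RPM of H3K4me3 and the cortex libraries at or below 3.35.

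The starts of Mef2c were marked differently in the tissues. At the first start H3K4me3 was called in 4 of 9 cortex libraries and 10 of 10 gastrocnemius libraries (Fisher's exact test, adjusted p = 0.0805), and H3K27ac in 2 of 9 and 10 of 10 (adjusted p = 0.00547). Among all starts with a peak in at least 1 library, 6.49% were more often called in the gastrocnemius and 6.97% in the cortex for H3K4me3, and 7.18% and 11.4% for H3K27ac.

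The H3K4me3 value at the first start was 0 in cortex libraries 1, 2, 6, 7 and 8, and 3.35, 2.99, 1.86 and 2.06 RPM in libraries 3, 4, 5 and 9. In the gastrocnemius the lowest library had 18.97 RPM, the median was 25.7 and the highest had 29.9. The tissues did not overlap, and the highest cortex library lay well below the lowest of the gastrocnemius. H3K27ac at this start was 1.86 and 2.90 RPM in cortex libraries 3 and 4 and 0 in the other cortex libraries, against 6.79 to 10.7 RPM in the gastrocnemius. In gastrocnemius libraries 3, 4, 6 and 8 a single H3K27ac peak covered both the first and the second start, and in library 3 the third as well, so that these values are parts of 1 peak. In the other 6 gastrocnemius libraries the first start had a peak apart from that over the second, at 6.91 to 10.7 RPM. The 2 cortex libraries with an H3K27ac peak were among the 4 with an H3K4me3 peak. A predicted gene, Gm33317, starts within 1 kb and shares this peak.

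The second start was marked in every library and differed less. H3K4me3 ranged from 44.7 through a median of 47.2 to 54.4 RPM in the cortex and from 26.9 through 37.4 to 40.7 RPM in the gastrocnemius, so that the RPM values did not overlap. In edgeR's quasi-likelihood test with TMM factors the log2 difference, cortex minus gastrocnemius, was 0.18 (SE 0.08, adjusted p = 0.0561), where 30.5% of the 17703 starts called in every library were higher in the cortex and 27.2% higher in the gastrocnemius. This call was lost with DESeq2's size factors (adjusted p = 0.108) and in the libraries without an S number (adjusted p = 0.164). H3K27ac there was 17.7 ± 2.40 RPM (SD, n = 9) in the cortex and 14.1 ± 2.59 (n = 10) in the gastrocnemius, with a log2 difference of 0.09 (SE 0.09, adjusted p = 0.479). It passed without TMM factors (0.33, adjusted p = 0.0259) and in limma (adjusted p = 0.0137), and its sign was the opposite with all reads of the overlapping peaks (−0.52, adjusted p = 0.177).

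The size of these differences depends on TMM. Without TMM factors the median difference over all tested starts was 0.30 for H3K4me3 and 0.26 for H3K27ac on the log2 scale, against 0.03 and 0.02 with them. RPM values carry this shift towards the cortex, of which the edgeR values keep 0.03 and 0.02. Of the H3K4me3 calls 52.9% were higher in the cortex with TMM and 79.7% without, and of the H3K27ac calls 51.4% and 80.8%.

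The third Mef2c start was marked weakly by H3K4me3, which was called in 6 of 9 cortex and 10 of 10 gastrocnemius libraries (adjusted p = 0.476). Its H3K27ac was called in every library and was higher in the gastrocnemius by edgeR, with a log2 difference of −0.50 (SE 0.09, adjusted p = 0.000123), a call that limma did not give (adjusted p = 0.104). Of 18825 starts 25.8% were higher in the gastrocnemius and 27.2% higher in the cortex for this mark. The RPM values at this start overlapped, 5.25 to 8.65 in the cortex and 5.13 to 9.15 in the gastrocnemius. The H3K27ac peaks over it were 9.60 to 17.6 kb wide in the cortex and 14.6 to 101.2 kb in the gastrocnemius, and a wide peak shares its reads over its whole length and so gives less to the window.

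The share of the reads of the 3 Mef2c starts that fell at each start is a ratio within a library and does not depend on the scaling. This share was computed after the values above had been seen. It does depend on the window length, which differed between the starts and was not corrected for. Per kb of window, the first start was above the second in the gastrocnemius. Reads at the first start are also shared with the predicted gene Gm33317. For H3K4me3 the first start took 0 to 6.03% of the reads of the 3 Mef2c starts in the cortex, median 0%, and 30.9 to 44.2% in the gastrocnemius, median 37.1%. The second start took 88.0 to 100% and 46.6 to 59.9%. Neither range overlapped, and each p was 1.08e-05, the smallest that the exact permutation test over 92378 relabellings allows (adjusted p = 1.62e-05 over the 3 shares tested). No H3K4me3 peak lay over more than 1 of the 3 starts. The peak width, over which reads were shared, was 6.40 to 11.4 kb at the first and 5.40 to 10.4 kb at the second start in the gastrocnemius. No such share is given for H3K27ac, whose peaks ran over several starts in 4 of 10 gastrocnemius libraries.

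Between the first and the second start, H3K4me3 covered a further site at chr13:83514001-83520400, inside the transcripts of the first start and not within 1 kb of any start. It was called in all 19 libraries, with 28.8 ± 2.02 RPM (SD, n = 9) in the cortex and 21.6 ± 1.71 (n = 10) in the gastrocnemius.

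The Mef2c body as a whole carried H3K27ac over 62.8 ± 14.5% of its length in the cortex and 90.1 ± 6.55% in the gastrocnemius. Its reads were 304 ± 69.5 RPM and 424 ± 37.5 RPM (log2 difference −0.51, exact permutation, adjusted p = 0.000194 over 23 tests of gene bodies and flanks). The lowest gastrocnemius library, 361 RPM, lay below the highest cortex library, 388 RPM. H3K4me3 in the body was 218 ± 25.6 and 195 ± 22.0 RPM, a log2 difference of 0.16 (exact permutation, adjusted p = 0.0533) that became −0.11 with TMM factors. A distal H3K27ac site upstream, chr13:83460201-83469600 and outside any annotated gene, was called in 10 of 10 gastrocnemius libraries at 7.61 ± 1.86 RPM and in 0 of 9 of the cortex (Fisher's exact test, adjusted p = 8.87e-05). Sites called in every gastrocnemius library and no cortex library made up 4.3% of the 49894 H3K27ac consensus sites. Over the upstream flank as a whole H3K27ac was 4.49 ± 6.12 RPM (SD, n = 9) in the cortex and 63.4 ± 21.2 (n = 10) in the gastrocnemius (exact permutation, adjusted p = 1.92e-05), which includes the part of the site over the gene that begins before the first start, at 83471401.

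No consensus site in any of the 3 loci showed the reverse, a peak in every cortex library and in no gastrocnemius library. Over all consensus sites 4.09% did for H3K4me3, 7.9% for H3K27ac and 3.06% for H3K27me3. H3K27me3 had no site of either kind in the loci, and 1.48% of its sites were called in every gastrocnemius library and no cortex library. Consensus sites can be wide, so these counts miss smaller stretches inside a site. The H3K27ac site chr13:83711401-83750800, 39.4 kb long, held 295 RPM in the cortex and 1.12 RPM in the gastrocnemius, where 4 libraries had a peak. A microRNA start inside it, described below, had an H3K27ac peak in every cortex library and in no gastrocnemius library.

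**Figure D2:**
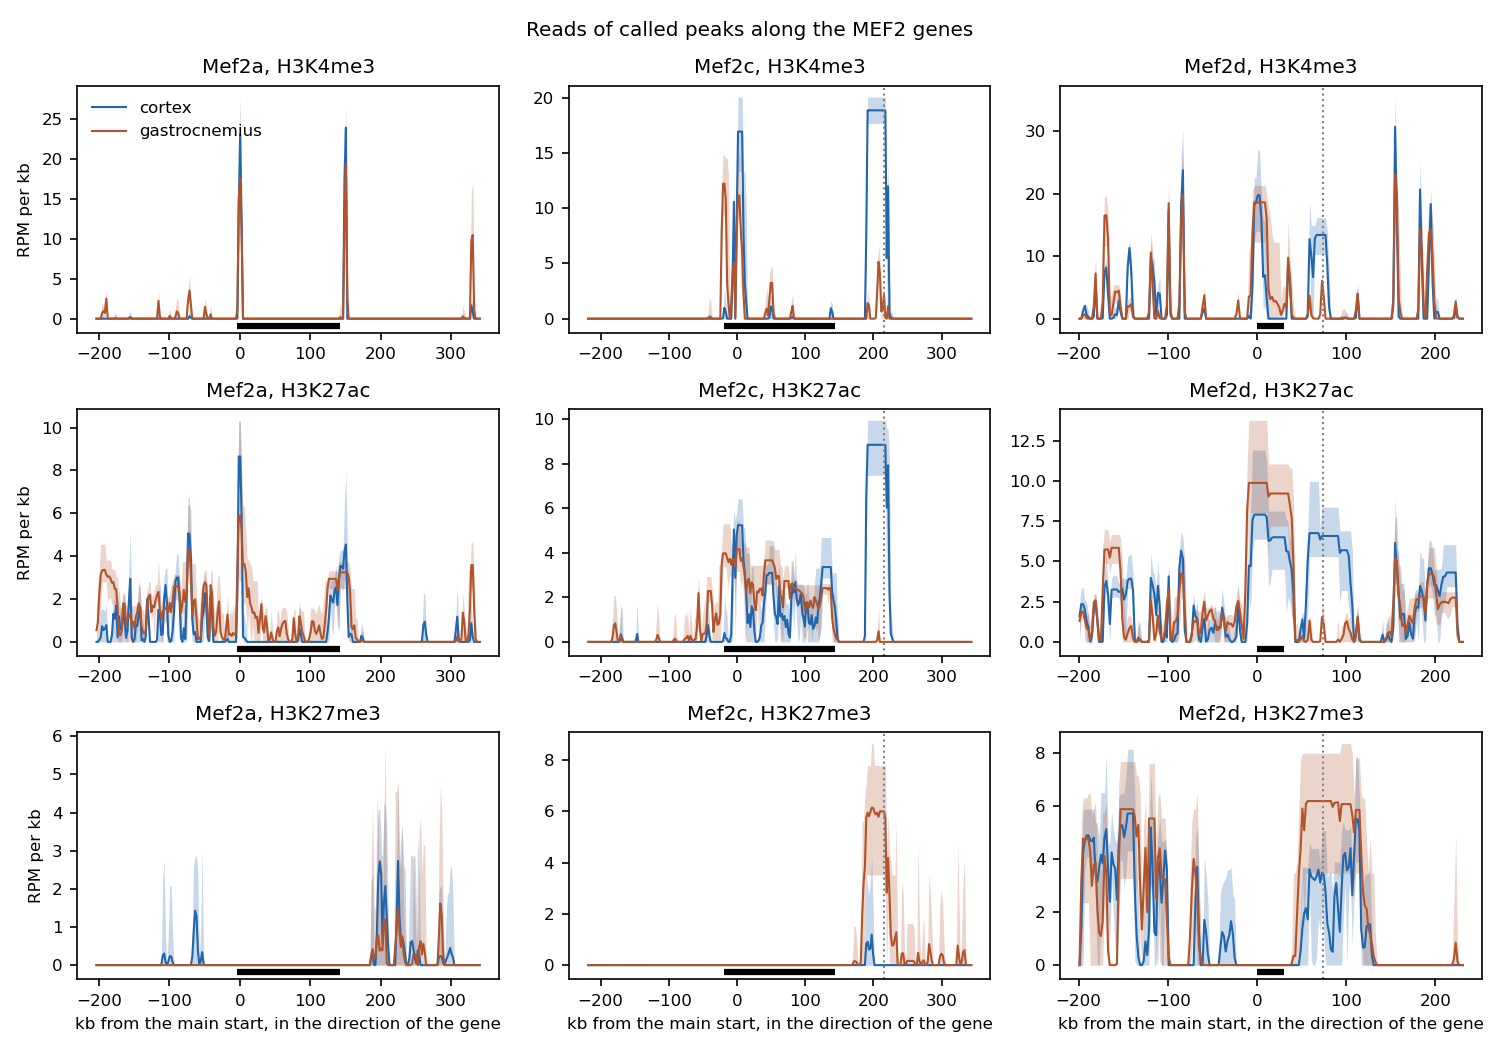
Reads of called peaks in bins of 2 kb along Mef2a, Mef2c and Mef2d with 200 kb on each side, in RPM per kb, against the distance from the main start in the direction of the gene. Lines are tissue means (cortex blue, n = 9; gastrocnemius brown, n = 10), shaded bands run from the lowest to the highest library, the black bar is the gene and the dotted line the miR-9 gene; the scale of each panel is its own. Flat tops arise where a wide peak's reads were shared evenly over it. No H3K27me3 peak lies in the 3 gene bodies. In the gastrocnemius H3K27me3 covers the miR-9 regions beyond Mef2c and Mef2d, and the region beyond Mef2d carries it in every cortex library too.

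Beyond the 3′ end of Mef2c the 3 marks differed between the tissues without overlap. There lies Mir9-2, a gene of miR-9, a microRNA known for its high level in brain, with its host transcript C130071C03Rik. The hairpin begins 71.7 kb past the end of Mef2c at chr13:83738814-83738885. Mef2d has a neighbour of the same kind, Mir9-1 at chr3:88215598-88215686, which begins 43.5 kb past its end. Both genes yield the same mature miR-9-5p, shown here with its seed, bases 2 to 8, in capitals, since the marks below lie over these genes and not over the MEF2 genes.
miR-9-5p: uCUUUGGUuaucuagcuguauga

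Over the 200 kb downstream of Mef2c, H3K4me3 ranged from 553 through a median of 579 to 610 RPM in the cortex and from 29.1 through 37.8 to 44.3 RPM in the gastrocnemius. H3K27ac ranged from 249 through 297 to 332 RPM and from 0 through 2.19 to 5.69 RPM. H3K27me3 went the other way, with 0 to 22.8 RPM, median 8.51, in the cortex and 187 to 278 RPM, median 248, in the gastrocnemius. The values of each mark lay apart in the 2 tissues.

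The cortex mean was 15.02 times that of the gastrocnemius for H3K4me3, and the gastrocnemius mean was 26.2 times that of the cortex for H3K27me3 (exact permutation, adjusted p = 1.92e-05 for each of the 3 marks, from the smallest p that the test allows). H3K4me3 peaks covered 31.3 ± 0.79 kb of this flank in the cortex and 10.2 ± 1.69 kb in the gastrocnemius. H3K27me3 peaks covered 3.02 ± 3.24 kb and 46.9 ± 17.8 kb, and H3K27ac peaks 35.6 ± 2.40 kb and 1.26 ± 1.49 kb.

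Nearly all of these reads fell in a single region over the microRNA and its host. The H3K4me3 site chr13:83712801-83743200 held 554 ± 19.6 RPM in the cortex and 36.3 ± 5.37 RPM in the gastrocnemius. The H3K27me3 site chr13:83705801-83758200, which contains it, held 9.26 ± 9.58 and 226 ± 33.5 RPM and was called in 5 of 9 and 10 of 10 libraries. In the gastrocnemius, then, peaks of both marks were called in this region in every library. At the Mir9-2 start H3K4me3 was higher in the cortex by 2.85 log2 (edgeR, SE 0.11, adjusted p = 8.56e-17). H3K27ac was called there in 9 of 9 cortex and 0 of 10 gastrocnemius libraries (Fisher's exact test, adjusted p = 0.000150), and H3K27me3 in 0 of 9 and 10 of 10 (adjusted p = 0.000256).

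Taking the whole Mef2c locus with both flanks, H3K4me3 was 798 ± 28.3 RPM (SD, n = 9) in the cortex and 275 ± 29.6 RPM (n = 10) in the gastrocnemius, a log2 difference of 1.54 (exact permutation, adjusted p = 3.25e-05 over the 9 gene and mark pairs). The difference was 1.58 in the 13 libraries without an S number in their deposited names and 1.51 in the 6 with one. Most of it was the downstream flank, since the gene body alone gave 0.16. H3K27me3 over the locus was its downstream flank alone, since the other parts had no called peak. H3K27ac was 607 ± 71.3 and 490 ± 56.3 RPM, and its log2 difference of 0.31 (exact permutation, adjusted p = 0.00196) held a higher downstream flank and a lower gene body in the cortex. With TMM factors it was 0.053 and no longer passed (adjusted p = 0.677).

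**Figure D3:**
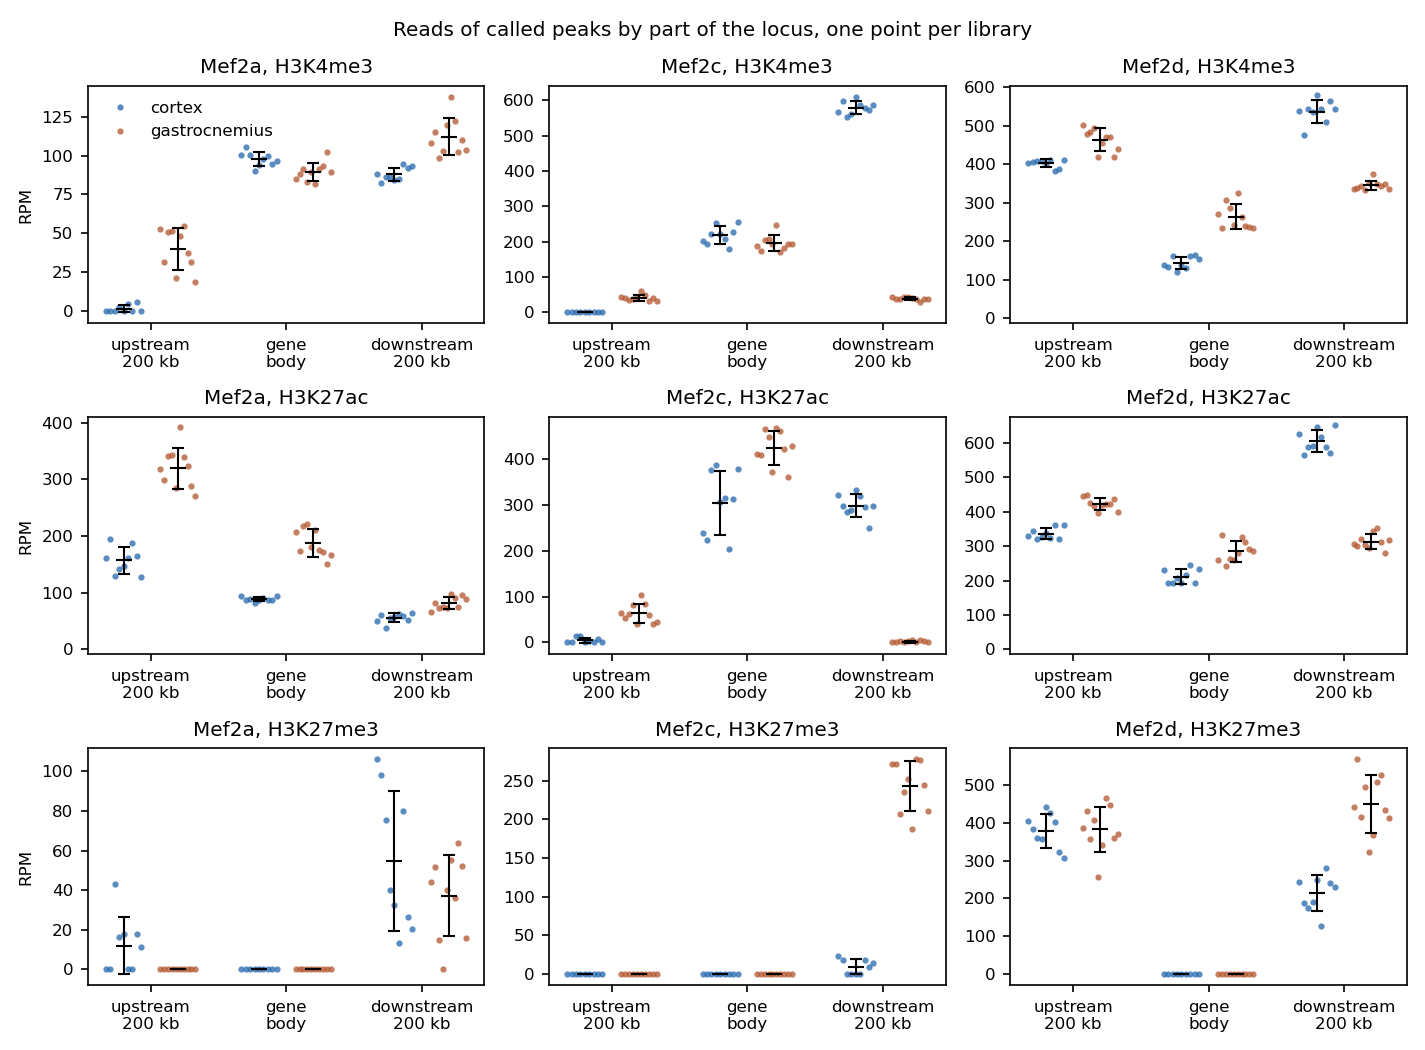
Reads of called peaks (RPM, linear axes of different range) in the 200 kb upstream, the gene body and the 200 kb downstream of each MEF2 gene, by mark. Points are libraries, blue for cortex (n = 9) and brown for gastrocnemius (n = 10), and bars give the mean ± SD. Downstream of Mef2c the cortex libraries have 553 to 610 RPM of H3K4me3 and the gastrocnemius libraries 29.1 to 44.3.

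Mef2a carried more H3K27ac in the gastrocnemius along its body and in both flanks, while the H3K27ac difference at its start changed sign with the way wide peaks were read. At the curated start H3K4me3 was 38.0 to 55.5 RPM, median 45.9, in the cortex and 28.6 to 42.3 RPM, median 35.4, in the gastrocnemius, with a log2 difference of 0.12 in edgeR (SE 0.09, adjusted p = 0.272). The predicted start had no H3K4me3 peak in 9 of 9 cortex libraries and one in gastrocnemius libraries 3 and 10 (adjusted p = 1, Fisher's exact test).

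H3K27ac at the curated start was even across the cortex, 14.5 to 20.5 RPM, and uneven across the gastrocnemius, 5.73 to 20.7 RPM. The gastrocnemius library with the lowest value, library 3, had the widest peak over the start, 30.8 kb, and the highest, library 8, had the narrowest, 6.20 kb. The edgeR difference of 0.37 (SE 0.16, adjusted p = 0.0603, higher in the cortex) turned to −0.32 (adjusted p = 0.00149) when all reads of the overlapping peaks were taken, and it missed the threshold in the libraries without an S number (adjusted p = 0.177).

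Over the body of Mef2a H3K27ac was 81.3 to 94.5 RPM, median 88.0, in the cortex and 151 to 222 RPM, median 179, in the gastrocnemius. The tissues did not overlap, and the gastrocnemius mean was 2.12 times that of the cortex (exact permutation, adjusted p = 1.92e-05). In the gastrocnemius 11 to 14 peaks covered 50.2 ± 13.9% of the gene, against 2 to 6 peaks and 14.9 ± 2.07% in the cortex. Of 22 H3K27ac consensus sites in the locus 12 were more often called in the gastrocnemius and 1 in the cortex, where 15.5% and 31.8% of all consensus sites of this mark were. Of 8 sites inside the gene and away from any start, 7 were more often called in the gastrocnemius, 6 of them with no peak in any cortex library, and 0 in the cortex. These sites neighbour each other in 1 gene and are not separate observations.

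Upstream of Mef2a, where Lrrc28 and predicted genes lie, H3K27ac was 157 ± 23.7 RPM in the cortex and 320 ± 36.3 RPM in the gastrocnemius (exact permutation, adjusted p = 1.92e-05), and H3K4me3 was 1.41 ± 2.32 and 39.8 ± 13.5 RPM (same p). The H3K27ac peaks covered 59.9 and 132 kb of this flank on average, and the H3K4me3 peaks 0.600 ± 1.04 and 13.0 ± 4.04 kb. Of 10 H3K4me3 consensus sites in the locus 5 were more often called in the gastrocnemius and 0 in the cortex, against 20.4% and 12.4% of all such sites. H3K27me3 in this flank was 11.9 ± 14.3 RPM in the cortex, with peaks in 5 of 9 libraries, and 0 in 10 of 10 gastrocnemius libraries (exact permutation, adjusted p = 0.0125). With libraries paired by animal, p was 0.0625 (exact sign-flip test, unadjusted). Of all H3K27me3 consensus sites 28.2% were more often called in the cortex and 10.5% in the gastrocnemius. One distal H3K4me3 site there, chr7:67561801-67568600 inside Lrrc28, was called in 0 of 9 and 10 of 10 libraries at 9.79 ± 3.41 RPM in the gastrocnemius (Fisher's exact test, adjusted p = 0.000112). Such sites made up 5.59% of the 29113 H3K4me3 consensus sites.

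In the downstream flank H3K27ac was 55.7 ± 8.05 RPM in the cortex and 81.7 ± 10.8 RPM in the gastrocnemius, without overlap (exact permutation, adjusted p = 3.32e-05). In the same flank, a site inside Adamts17 at chr7:67039801-67045000 held 5.06 ± 2.37 RPM of H3K4me3 in the cortex and 42.8 ± 9.99 RPM in the gastrocnemius. It lies more than 100 kb from the gene and was chosen after its values were seen. Over the whole Mef2a locus H3K4me3 was 187 ± 5.53 and 242 ± 17.04 RPM (log2 difference −0.36, exact permutation, adjusted p = 4.87e-05), but with flanks of 100 kb the difference was −0.010 (adjusted p = 0.721). H3K27ac over the locus was 302 ± 27.3 and 589 ± 55.8 RPM, a difference of −0.96 (exact permutation, adjusted p = 3.25e-05). H3K27me3 over the whole locus was variable in both tissues, 13.6 to 118 RPM and 0 to 63.6 RPM, and its difference of 1.10 did not pass (exact permutation, adjusted p = 0.113). Leaving out cortex library 6 brought the adjusted p to 0.0305, leaving out cortex library 9 or gastrocnemius library 2, 6, 8 or 9 brought it to between 0.0758 and 0.0989, and with flanks of 100 kb it was 0.00803.

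Mef2d, the gene with the most H3K4me3 and H3K27ac per kb of gene body, carried wider and larger domains in the gastrocnemius. H3K4me3 over its body was 122 to 164 RPM, median 139, in the cortex and 234 to 326 RPM, median 252, in the gastrocnemius, without overlap. The gastrocnemius mean was 1.82 times that of the cortex (exact permutation, adjusted p = 1.92e-05). The mark covered 33.9 ± 2.93% of the gene in the cortex and 69.4 ± 15.05% in the gastrocnemius.

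Within 1 kb of the Mef2d start the tissues were close, 67.3 ± 14.7 RPM (SD, n = 9) in the cortex and 63.5 ± 9.22 RPM (n = 10) in the gastrocnemius, with a log2 difference of −0.19 (edgeR, SE 0.10, adjusted p = 0.126). The sign depended on the scaling, as the difference was 0.08 without TMM factors (adjusted p = 0.552). The lower cortex value passed with DESeq2's size factors (adjusted p = 0.0808), in DESeq2's own test (adjusted p = 0.0711) and with the S number as a covariate (adjusted p = 0.0214). With all reads of the overlapping peaks it was −0.72 (adjusted p = 1.77e-08). H3K27ac at the start was 21.8 to 40.6 RPM, median 24.5, in the cortex and 27.4 to 46.9 RPM, median 32.0, in the gastrocnemius, higher in the latter by 0.59 log2 (edgeR, −0.59, SE 0.10, adjusted p = 2.33e-05), although the ranges overlapped. These values also depend on peak width, whose median was 44 kb in the cortex and 53.2 kb in the gastrocnemius. Cortex libraries 4 and 9, at 36.5 and 40.6 RPM, had peaks of 17.6 and 18.4 kb. Gastrocnemius library 9, at 46.9 RPM, had a peak of 23 kb.

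The H3K4me3 peak over the Mef2d start was 6.60 to 16.0 kb wide in the cortex, median 10.2 kb, and 16.2 to 36.2 kb in the gastrocnemius, median 17.3 kb. The tissues did not overlap, and the means differed by 8.30 kb (exact permutation, adjusted p = 3.25e-05 over the 3 genes). Among the peak widths of its library it ranked between percentiles 99.5 and 99.9 in the gastrocnemius and 97.0 and 99.8 in the cortex, which overlap. H3K4me3 peaks covered 72.3 to 109.6 Mb per gastrocnemius library and 53.7 to 68.7 Mb per cortex library, and widths in kb were not corrected for this. At the second Mef2c start the order of the widths was the opposite, with 10.4 ± 1.88 kb in the cortex and 8.14 ± 2.13 kb in the gastrocnemius (exact permutation, adjusted p = 0.0265). Its percentiles were 98.8 to 99.8 in the cortex and 86.7 to 98.7 in the gastrocnemius. At Mef2a the peaks were 4.33 ± 0.71 and 5.18 ± 0.68 kb wide (exact permutation, adjusted p = 0.0265, and 0.149 in the libraries without an S number). The Mef2a percentiles overlapped, 73.5 to 89.6 in the cortex and 73.5 to 91.4 in the gastrocnemius.

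**Figure D4:**
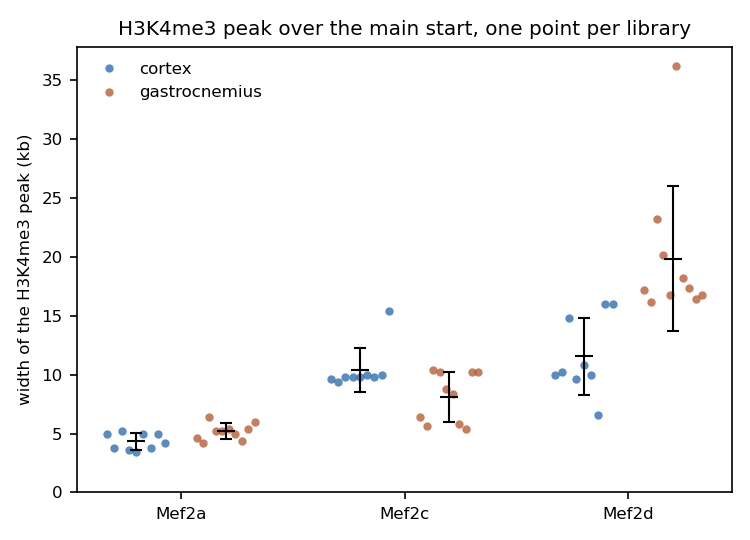
Width in kb (linear axis from 0) of the H3K4me3 peak over the main start of each MEF2 gene. Points are libraries, blue for cortex (n = 9) and brown for gastrocnemius (n = 10), and bars give the mean ± SD. At Mef2d every gastrocnemius peak, 16.2 kb or wider, exceeds every cortex peak, at most 16.0 kb.

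The flanks of Mef2d are rich in other genes, 25 within 200 kb, and their H3K4me3 went in both directions. For H3K4me3 17 of the 25 were tested, of which 6 were higher in the cortex and 6 in the gastrocnemius, where 30.5% and 27.2% of all tested starts were. Bcan, which encodes brevican of the brain matrix, was higher in the cortex (1.48 log2, adjusted p = 3.41e-11, edgeR), and Tmem79 and Nes were higher in the gastrocnemius (−1.72 and −1.33 log2). Nes encodes the intermediate filament nestin. For H3K27ac 16 of the 25 were tested, with 6 higher in the cortex and 3 in the gastrocnemius, against 27.2% and 25.8% of all tested starts. For H3K27me3 8 were tested, with 0 higher in the cortex and 5 in the gastrocnemius, against 26.4% and 22.6%. Starts under the same peak are not separate observations. The locus sums over Mef2d were close for H3K4me3, 1084 ± 34.7 and 1073 ± 54.5 RPM (log2 difference 0.02, exact permutation, adjusted p = 0.575), a value that was −0.26 with TMM factors (adjusted p = 0.00351). The H3K27ac sums were 1152 ± 53.7 and 1021 ± 46.8 RPM, and their difference of 0.17 was −0.081 with TMM factors. Over the whole locus H3K27me3 was 592 ± 63.6 and 831 ± 133 RPM, with overlapping ranges. Its log2 difference was −0.48 (exact permutation, adjusted p = 0.000438) and −0.57 with TMM factors. In the upstream flank H3K27me3 was 378 ± 45.5 and 382 ± 59.9 RPM (exact permutation, adjusted p = 0.949). In the downstream flank it was 214 ± 47.0 and 449 ± 75.7 RPM (exact permutation, adjusted p = 1.92e-05).

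One distal H3K4me3 site, chr3:88119201-88122400 inside Iqgap3 and centred at −21.1 kb from the Mef2d start, was called in 10 of 10 gastrocnemius and 0 of 9 cortex libraries at 7.55 ± 1.69 RPM (Fisher's exact test, adjusted p = 0.000112). H3K27me3 was called at chr3:88100201-88117800, just before this site, in 7 of 9 cortex libraries and 0 of 10 of the gastrocnemius (adjusted p = 0.00550), where 28.2% of all H3K27me3 consensus sites were more often called in the cortex and 10.5% in the gastrocnemius.

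Past the 3′ end of Mef2d the marks over Mir9-1 followed those over Mir9-2, in a milder form. The site chr3:88199001-88223200 held 268 ± 29.2 RPM of H3K4me3 in the cortex and 29.6 ± 4.45 RPM in the gastrocnemius. H3K27me3 at chr3:88181601-88274600 was 214 ± 47.0 and 446 ± 74.6 RPM and was called in all 19 libraries. At the Mir9-1 start H3K4me3 was higher in the cortex by 0.64 log2 (SE 0.13, adjusted p = 0.000181), H3K27ac by 1.34 (SE 0.09, adjusted p = 5.65e-11) and H3K27me3 was lower by 0.78 (−0.78, SE 0.06, adjusted p = 3.49e-09), all by edgeR. Of the 3273 starts tested for H3K27me3 22.6% were higher in the gastrocnemius and 26.4% in the cortex. Mir9-1, Mir3093, Gm3764 and Gm25641 share these peaks and are not separate observations. Unlike at Mir9-2, where the cortex had no H3K27me3 peak at the start, every cortex library had H3K27me3 at Mir9-1; that contrast between the 2 genes was not tested.

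The other neighbours were fewer. Near Mef2a, Lysmd4 had more H3K4me3 in the cortex (0.22 log2, adjusted p = 0.0273, edgeR), as did 1700112J16Rik, which shares its peak (0.18, adjusted p = 0.0620). Of 9 other genes near Mef2c, 3 were tested for H3K4me3. All 3 were higher in the cortex, where 30.5% of all tested starts were, and 27.2% were higher in the gastrocnemius. They were C130071C03Rik, Mir9-2 and Gm51268 of the microRNA region. For H3K27me3 4 were more often called in the gastrocnemius and 0 in the cortex, where 11.9% and 10.4% of all starts were. These 4, C130071C03Rik, Gm51268, Gm52046 and Mir9-2, lie under the same H3K27me3 site and the same H3K4me3 site and are not separate observations.

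The genes that regulate MEF2 proteins were compared at their own main starts. Of 20 partners and regulators, 19 were tested for H3K4me3, 3 were higher in the cortex and 8 in the gastrocnemius, with a median of −0.07 log2 against 0.03 over all starts, of which 30.5% were higher in the cortex and 27.2% in the gastrocnemius. Camk4, a calcium-dependent kinase of neurons, was 38.7 RPM in the cortex and 11.2 RPM in the gastrocnemius (1.51 log2, adjusted p = 3.72e-13), and Hdac5, a class IIa deacetylase that binds MEF2, was 40.2 and 25.1 RPM (0.40, adjusted p = 0.00242), both by edgeR. Vgll2, a cofactor of skeletal muscle, was 5.41 and 20.2 RPM (−2.16, adjusted p = 1.35e-12, edgeR). For H3K27ac 17 were tested and 1 passed in each direction, where 27.2% of all tested starts were higher in the cortex and 25.8% in the gastrocnemius. Vgll2 had H3K27ac in 0 of 9 cortex and 10 of 10 gastrocnemius libraries and H3K27me3 in 9 of 9 and 1 of 10 (Fisher's exact test, adjusted p = 0.000150 and 0.00148).

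Of 12 known muscle targets of MEF2, 7 had H3K4me3 more often in the gastrocnemius and 0 in the cortex, where 6.49% and 6.97% of all starts with a peak were. Ckm, the muscle creatine kinase, Mb, myoglobin, Smpx, Xirp1 and Myl1 had a peak in 10 of 10 gastrocnemius and 0 of 9 cortex libraries (Fisher's exact test, adjusted p = 0.000178 each). Slc2a4, the insulin-responsive glucose transporter, was called in all libraries with 6.97 and 35.4 RPM (−2.60 log2, adjusted p = 2.52e-16, edgeR). H3K27me3 was more often called in the cortex at 5 of the 12, namely Ckm, Mb, Des, Slc2a4 and Actc1, against 10.4% of all starts with a peak of this mark. The MEF2 starts themselves had no H3K27me3 peak in either tissue.

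Of 12 known neuron targets, 11 were tested for H3K4me3, with 4 higher in each tissue and a median of 0.05 log2. Over all tested starts 30.5% were higher in the cortex and 27.2% in the gastrocnemius. Pcdh10, a protocadherin (1.87 log2, adjusted p = 2.60e-14), Nrgn, neurogranin (1.40, adjusted p = 2.60e-11) and Arc, an activity-dependent synaptic gene (1.20, adjusted p = 6.40e-10) were the largest changes towards the cortex by edgeR. The 4 higher in the gastrocnemius, Nr4a1, Bdnf, Homer1 and Jun, had differences between −0.37 and −0.19 log2 with overlapping RPM values and were named after these values were seen. The mean of Nr4a1 in RPM, without TMM factors, was higher in the cortex (41.9 and 39.8). Gria1, a glutamate receptor subunit, had H3K4me3 in 9 of 9 cortex and 0 of 10 gastrocnemius libraries (Fisher's exact test, adjusted p = 0.000178). H3K27me3 was more often called in the gastrocnemius at 2 of the 12 and in the cortex at 1, where 11.9% and 10.4% of all starts with a peak were. Arc and Pcdh10 had H3K27me3 in 10 of 10 gastrocnemius and 0 of 9 cortex libraries (Fisher's exact test, adjusted p = 0.000256 each).

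Likeness to other genes was measured over all 57 libraries, 19 of each mark, as Pearson's r of log2(RPM + 1) at the main start. The closest genes of other loci were 4930583K01Rik and Smg1 for Mef2a (r = 0.996 for both), Dusp7 and Igsf8 for Mef2c (r = 0.998 for both) and Tmem88 for Mef2d (r = 0.996). The MEF2 genes were nearly as close to each other, with r of 0.993 between Mef2a and Mef2c, 0.990 between Mef2c and Mef2d and 0.981 between Mef2a and Mef2d. The libraries span 3 marks and share animals, and these values are a description only.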

How the data were processed

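Chromatin immunoprecipitation followed by sequencing was analysed for 3 marks in 57 libraries. Per the labels and the methods, BWA was used by the authors for alignment to mm10 and SAMtools for filtering, and epic2 then called peaks library by library in windows of 200 bp. For every peak a count, the unnormalized number of ChIP fragments in it, was deposited. The score deposited beside it served here only to rank peaks. Reads outside called peaks were not used here. Reads in peaks ranged from 2.99 M to 27.3 M per library, and the H3K27ac library of cortex replicate 9 had 3.94 M.

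The reads of a peak were shared by overlap over windows of 1 kb around each RefSeq start (curated and predicted), gene bodies and flanks of 200 kb. Starts called in all 19 libraries of a mark were tested with edgeR 4.0.16 (quasi-likelihood, TMM), calls with Fisher's exact test (consensus sites: at least 3 libraries of a tissue), and log2(RPM + 1) of loci and peak widths with exact two-sided permutation over 92378 relabellings. Benjamini-Hochberg adjusted p below 0.1 passed, as in the study. R 4.3.3, Python 3.11.15 and SciPy 1.17.1 were used, and the code was tested on simulated data.

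The members and gene lists were chosen with earlier results of these data known. Named were each member start, up to 3 genes per list, mark and direction with the largest change (in the lists, among those not overlapping between tissues), the 5 most alike genes, of which 1 or 2 are given (another is not reported here), and distal sites called in every library of a tissue and none of the other. Genes named from calls were chosen after their values were seen. Libraries of a tissue come from separate animals by the IDs in their deposited names. These IDs pair 9 cortex with 9 gastrocnemius libraries, and the deviations of paired libraries from their tissue means correlated between −0.10 and 0.08. Title numbers pair the same animal only for 4 of 9. S numbers in the deposited names, on 2 of 9 cortex and 4 of 10 gastrocnemius libraries per mark, were taken as a possible batch of unknown kind.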

Additional observations from a re-analysis of the deposited data

Results flagged for a closer look

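A value was looked at again where it lay far from the other libraries of its tissue by Dixon's test at 95%, which chance alone would do in about 1 of 20 groups. Of 42 groups of libraries tested, 5 held such a value. Gastrocnemius library 6 had 349 RPM of H3K4me3 over the Mef2c locus, where the others had 243 to 288, and the same library had the H3K4me3 peak of 36.2 kb at the Mef2d start, where the others had 16.2 to 23.2 kb. Cortex library 9 had an H3K4me3 peak of 15.4 kb over the second Mef2c start, where the others had 9.40 to 10 kb, and 8.65 RPM of H3K27ac at the third Mef2c start, where the others had 5.25 to 6.91. The H3K27ac library of cortex replicate 9 had 3.94 M reads in peaks, and its peak over the third Mef2c start, 9.60 kb, was the narrowest of the cortex. Gastrocnemius library 9 had 46.9 RPM of H3K27ac at the Mef2d start, where the others had 27.4 to 37.7. Its peak there was 23 kb wide, against a median of 53.2 kb in the gastrocnemius.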

How the results depend on the processing

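Scaling and the extent of the locus set the direction of several sums, while the Mef2c differences in H3K4me3 and H3K27me3 and the Mef2a difference in H3K27ac kept theirs under every alternative tried for the locus that gave a value, although the Mef2c body alone turned to −0.11 for H3K4me3 with TMM factors. With the gene body alone the log2 difference, cortex minus gastrocnemius, was 0.13 for Mef2a H3K4me3, 0.16 for Mef2c H3K4me3 against 1.54 with the flanks, −0.51 for Mef2c H3K27ac, −0.86 for Mef2d H3K4me3 and −0.43 for Mef2d H3K27ac. No H3K27me3 was called in a gene body, so that this mark has no such value. With flanks of 100 kb it was −0.010 for Mef2a H3K4me3, 1.48 for Mef2a H3K27me3 and 0.14 for Mef2d H3K4me3. With covered kb in place of reads it was −0.35 for Mef2c H3K27ac, −0.21 for Mef2d H3K4me3 and 0.093 for Mef2d H3K27ac. With TMM factors, chosen after seeing the data, it was 0.053 for Mef2c H3K27ac, −0.26 for Mef2d H3K4me3 and −0.081 for Mef2d H3K27ac. Leaving out 1 library at a time moved the Mef2a H3K27me3 difference between 0.57 and 1.35, and the adjusted p between 0.0305 and 0.212. The Mef2a peak width difference was −0.71 kb in the libraries without an S number. Mef2a H3K27ac at the curated start was −0.32 with all reads of overlapping peaks.

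Taking uncalled starts at 0 reads gave 15848, 19421 and 8799 starts with different reads for H3K4me3, H3K27ac and H3K27me3, and limma gave 18642, 22146 and 10420, against 10216, 9980 and 1606. Both settings also tested starts that were not called in every library, with uncalled values at 0. H3K27me3 without TMM factors gave 734. Without the 25% of peaks with the lowest scores 4753 H3K4me3 sites differed in calls against 9539, and with peaks covering at least 50% of the site 6168 H3K27me3 sites against 14288. The cause was not tested.

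The replicate block by animal ID changed no call of a member. Its H3K4me3 count was 9991. The replicate block by title number changed the call at the second Mef2c start (H3K4me3, 0.18, adjusted p = 0.113) and at the Mef2d start (−0.22, adjusted p = 0.0838). Reads outside peaks and weak peaks of shallow libraries limit calls of 0.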
